A study of Homo sapiens with 9 samples.

Results

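The 8 genes of the NODAL pathway described here are 8 of the 62710 Ensembl genes in the count table: the ligands NODAL and GDF3, the coreceptor TDGF1 (Cripto), the receptors ACVR1B and ACVR2B, the secreted inhibitors LEFTY1 and LEFTY2, and the transcription factor FOXH1. They were taken by gene symbol, and they were selected with their counts by plate shape and replicate number already in view. Differences between replicate numbers are therefore given as description, without a test. All 8 symbols were in the table, and 6 of the 8 had enough counts to be among the 23075 genes tested; LEFTY1 and LEFTY2 did not.

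NODAL is a secreted ligand of the TGF-beta family. It binds activin receptors, of which ACVR2B is a type II and ACVR1B a type I receptor. It commonly does so together with a coreceptor of the EGF-CFC family such as Cripto, a protein anchored to the cell surface. The active type I receptor phosphorylates SMAD2 and SMAD3, which join SMAD4 and, in the nucleus, partners such as FOXH1. In human embryonic stem cells this pathway sustains pluripotency, and its block is a standard step towards neural ectoderm. LEFTY1, LEFTY2 and NODAL itself are targets of the pathway, so their transcripts are commonly read as its output, and TDGF1 is a widely used marker of the pluripotent state.

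The cells were wild-type H9, a long-established line of human embryonic stem cells. All were kept for 72 h in mTeSR1, a pluripotency medium, on silicone (PDMS) plates coated with Matrigel, and then for 48 h in N2B27 medium with SB431542 and LDN. SB431542 inhibits the kinases of ACVR1B, ACVR1C and TGFBR1, and LDN inhibits type I BMP receptors, so the flat controls had the same inhibitors of NODAL and BMP signalling as the bent cultures. For the last 24 h, with both inhibitors still present, plates stayed flat (3 libraries), were bent concave (3) or were bent convex (3), and the labels number the libraries of each shape 1, 2 and 3. Whether the 3 libraries of a shape came from separate cultures is not in the labels; the spread behind each p-value is that between libraries and may be technical.

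Libraries held 49420082 to 64763412 counts each. Levels are CPM (counts per 1000000), counts scaled to library size with TMM factors, and the smallest amount taken as detected, 3 counts, is 0.0438 to 0.0632 CPM depending on the library. Markers of cell state were uneven. SOX2, counted below among the pluripotency markers, stood at 470 to 822 CPM in every library. OTX2, counted below with early neuroectoderm, stood at 257 to 318 CPM, while PAX6, a defining marker of human neuroepithelium, reached only 1.09 to 7.10 CPM. POU5F1, a pluripotency factor, was still at 206 to 512 CPM, and NANOG was at 0 in 4 libraries and at most 0.475 CPM. The cultures are called neuroepithelial here only as the labels do. In bulk RNA, fewer cells of a type and less RNA per cell cannot be told apart. Between libraries of a shape, the chi-square per degree of freedom ran from 19.7 to 159, apart from flat 2 against flat 3, at 285.

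Promoter windows are shown for TDGF1 and GDF3, the 2 members whose levels in the libraries numbered 3 lay above those in all other libraries. Each runs from 250 bases before to 50 bases after an annotated start, read 5′ to 3′ on the gene's own strand, and comes from RefSeq on GRCh38.p14, where TDGF1 is listed as CRIPTO. The first TDGF1 window is chr3:46574285-46574584 and the second chr3:46577538-46577837, both on the plus strand; the GDF3 window is chr12:7695726-7696025 on the minus strand. Capitals mark matches, on either strand, to the letters of 3 motifs: a FOXH1 core (TGTNNATT), a SMAD half-site (CAGAC) and a SOX core (CATTGT). No pair of matches overlaps.
TDGF1, first start: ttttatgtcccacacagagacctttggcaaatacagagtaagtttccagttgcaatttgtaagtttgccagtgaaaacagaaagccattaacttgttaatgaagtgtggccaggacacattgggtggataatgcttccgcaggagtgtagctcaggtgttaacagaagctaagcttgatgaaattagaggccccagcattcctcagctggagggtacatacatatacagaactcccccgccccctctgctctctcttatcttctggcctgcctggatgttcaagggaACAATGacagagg
TDGF1, second start: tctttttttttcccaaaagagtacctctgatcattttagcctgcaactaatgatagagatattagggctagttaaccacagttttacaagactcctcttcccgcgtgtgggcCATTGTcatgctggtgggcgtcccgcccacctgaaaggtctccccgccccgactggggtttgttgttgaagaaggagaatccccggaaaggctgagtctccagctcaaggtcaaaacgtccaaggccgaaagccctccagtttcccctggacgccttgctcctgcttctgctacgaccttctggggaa
GDF3: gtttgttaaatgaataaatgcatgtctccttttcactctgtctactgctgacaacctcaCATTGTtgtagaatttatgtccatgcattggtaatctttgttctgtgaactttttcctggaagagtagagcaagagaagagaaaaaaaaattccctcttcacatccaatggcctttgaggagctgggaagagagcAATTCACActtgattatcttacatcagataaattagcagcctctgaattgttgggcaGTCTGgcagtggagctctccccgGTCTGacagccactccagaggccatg
The GDF3 window held 1 FOXH1 core, 2 SMAD half-sites and 1 SOX core. Each TDGF1 window held 1 SOX core and none of the letters of the FOXH1 core or the SMAD half-site. An octamer motif (ATGCAAAT), the type bound by POU5F1, was in none of these windows. Such short motifs are common: of 35116 RefSeq windows of the same length, 11% held the FOXH1 core, 45.3% the SMAD half-site, 10.8% the SOX core and 1.77% the octamer. Windows were found for 5 of the 8 members. The NODAL window held 1 SMAD half-site, as did the second of the ACVR1B windows, and the ACVR2B window held none of the 4 motifs. A match is a run of letters and not evidence of binding.

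Per length of transcript, the means of TDGF1, FOXH1 and the 2 receptors were highest and those of the 2 LEFTY genes lowest. Over all 9 libraries TDGF1 averaged 21.9 ± 32.0 CPM per kilobase (SD, n = 9), FOXH1 16.0 ± 4.23, ACVR1B 14.5 ± 2.10 and ACVR2B 11.7 ± 1.27. GDF3 was at 0.941 ± 0.655 and NODAL at 0.166 ± 0.0873 CPM per kilobase, and LEFTY1 (0.0199 ± 0.0187) and LEFTY2 (0.0155 ± 0.0203) were lowest. The SD of TDGF1 exceeded its mean because its level differed by replicate number: 63.5 ± 13.9 CPM per kilobase in the libraries numbered 3 (n = 3), the highest of the 8 genes there, and 1.08 ± 0.579 in those numbered 1 and 2 (n = 6). The ranges of FOXH1 (11.2 to 23.6), ACVR1B (10.4 to 17.6) and ACVR2B (9.15 to 13.3 CPM per kilobase) overlapped, as did those of GDF3 (0.291 to 1.96) and NODAL (0.0253 to 0.328) and those of LEFTY1 and LEFTY2. The order of the means does not hold in every library: NODAL in flat 2 lay below LEFTY1 in the same library (0.0518), and TDGF1 in the libraries numbered 1 and 2 (0.442 to 1.88) lay within the range of GDF3. With the union of all exons as the length, the order was the same, with ACVR1B at 11.6 and ACVR2B at 8.82 CPM per kilobase.

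**Figure D1:**
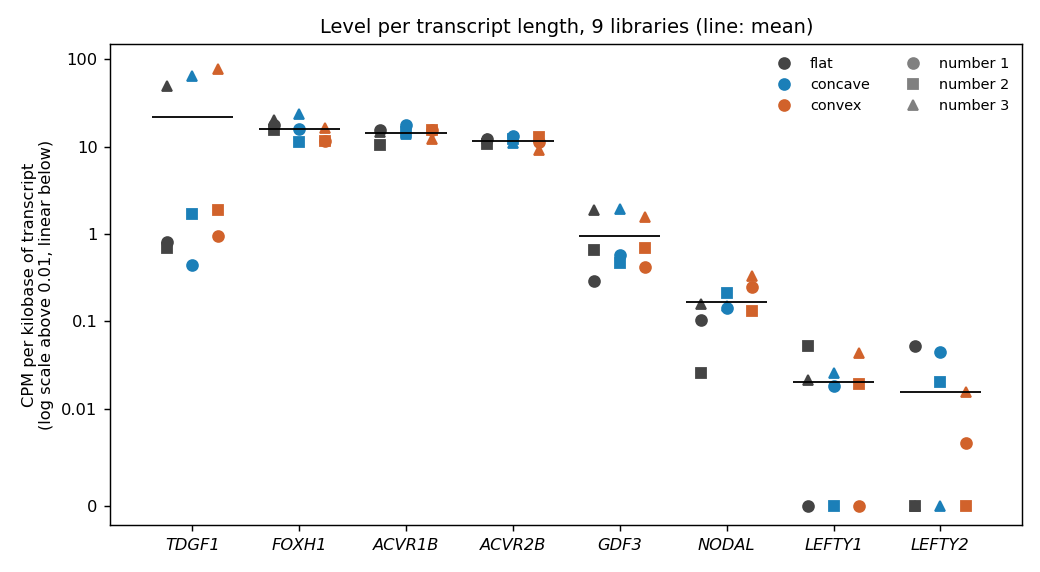
Level of each of the 8 genes in CPM per kilobase of transcript (vertical axis, logarithmic above 0.01 and linear below), with colour for plate shape, marker for replicate number and a line at the mean of 9 libraries. The libraries numbered 3 (triangles) stand alone for TDGF1, between 48.9 and 76.6, while FOXH1, ACVR1B and ACVR2B lie within one band in all libraries.

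TDGF1 (ENSG00000241186, chr3:46574534-46582463, GRCh38, GENCODE v29) encodes Cripto, which presents NODAL and GDF3 to the receptor complex. Flat libraries 1, 2 and 3 had 2.03, 1.73 and 123 CPM. The concave libraries had 1.11, 4.26 and 163 CPM, and the convex ones 2.37, 4.73 and 193 CPM. The 3 libraries numbered 3 were high and the other 6 were low in every plate shape, with no overlap: the lowest of the former was at 123 CPM and the highest of the latter at 4.73 CPM. Behind these values were 7040 to 10941 counts in the libraries numbered 3 and 76 to 305 counts in the others. The mean was 159 ± 34.9 CPM (n = 3) against 2.70 ± 1.46 CPM (n = 6), a ratio of 59.0. Within a shape, the library numbered 3 was 65.5-fold above the mean of the other 2 among flat libraries, 60.6-fold among concave and 54.3-fold among convex ones.

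Reads of TDGF1 can be shared with a copy of the gene. TDGF1P3 (chrX:110520312-110523021) is a transcribed processed pseudogene, and 15.3% of the 100-base windows of TDGF1 transcripts occur in it letter for letter. Its counts were 7.49% to 9.31% of those of TDGF1 in the libraries numbered 3 and 0% to 16.4% in the others. TDGF1P3 itself stood at 13.4 ± 4.05 CPM in the libraries numbered 3 and at 0.290 ± 0.278 CPM in the other 6, so its level moved with that of TDGF1. How the authors' counting treated reads that match both is not given in the sources used here, and the split between the 2 genes is uncertain. TDGF1P7, another copy, did not follow this order, at 0.334 ± 0.123 CPM against 0.343 ± 0.0627 CPM. LRRC2, on the opposite strand, shares 110 exon bases with TDGF1 and was also higher in the libraries numbered 3, at 4.28 ± 1.44 CPM against 0.456 ± 0.169 CPM. The libraries were made with a kit that keeps the strand, but the strand setting of the counting is not stated; LRRC2 and TDGF1P7 were chosen after their values were seen.

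NODAL (ENSG00000156574, chr10:70432315-70447951), the ligand that gives the pathway its name, was close to the limit of detection. Flat libraries 1, 2 and 3 had 0.172, 0.0421 and 0.262 CPM, from 10, 2 and 15 counts. Concave libraries had 0.234, 0.353 and 0.248 CPM, from 16, 23 and 12 counts, and convex ones 0.412, 0.217 and 0.546 CPM, from 28, 14 and 31 counts. The lowest value was that of flat 2, which is under the 3-count floor, and the highest that of convex 3. The libraries numbered 3 overlapped the others: their mean was 0.352 ± 0.168 CPM (n = 3) against 0.238 ± 0.132 CPM (n = 6), a log2 ratio of 0.56 that was 0.10 without convex 3. NODAL shares 698 exon bases with a gene on the opposite strand (ENSG00000280401), which had 96 counts over the 9 libraries against 151 for NODAL.

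GDF3 (ENSG00000184344, chr12:7689782-7695776), a second ligand that signals through Cripto, was also low but followed the order of TDGF1. It had 0.361, 0.821 and 2.30 CPM in flat libraries 1, 2 and 3. It had 0.715, 0.583 and 2.42 CPM in the concave libraries and 0.515, 0.852 and 1.92 CPM in the convex ones. All 3 libraries numbered 3 (109 to 132 counts) lay above all 6 others (21 to 55 counts). The mean was 2.22 ± 0.264 CPM (n = 3) against 0.641 ± 0.190 CPM (n = 6), a ratio of 3.45. By shape the ratio was 3.90 on flat, 3.73 on concave and 2.81 on convex plates. GDF3 was thus higher where TDGF1 was higher, by a far smaller factor.

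The receptors did not separate by replicate number. ACVR1B (ENSG00000135503, chr12:51951667-51997078), the type I receptor whose kinase SB431542 blocks, had 71.5, 47.3 and 68.0 CPM in flat libraries 1, 2 and 3. It had 80.3, 66.8 and 64.0 CPM in the concave libraries and 70.0, 70.8 and 56.0 CPM in the convex ones. Flat 2 was lowest and concave 1 highest, and all 3 shapes overlapped. ACVR2B (ENSG00000114739, chr3:38453851-38493142), the type II receptor, had 147, 128 and 145 CPM in the flat, 157, 144 and 131 CPM in the concave and 135, 154 and 108 CPM in the convex libraries. Its lowest value was that of convex 3. The libraries numbered 3 averaged 62.7 ± 6.14 CPM of ACVR1B and 128 ± 18.8 CPM of ACVR2B, the other 6 averaged 67.8 ± 11 and 144 ± 11 CPM, and both pairs overlapped. Per kilobase, ACVR2B stood at 0.745 to 0.838 times ACVR1B in 8 libraries and at 1.05 times in flat 2.

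The secreted inhibitors were barely detected. LEFTY1 (ENSG00000243709, chr1:225886282-225911382) had 0, 4 and 2 counts in flat libraries 1, 2 and 3, 2, 0 and 2 in the concave and 0, 2 and 4 in the convex ones. LEFTY2 (ENSG00000143768, chr1:225936598-225941489) had 7, 0 and 0 counts, then 7, 3 and 0, then 1, 0 and 2. The highest level of either gene in any library was 0.120 CPM, and no fold is given because group means lay at or near the 3-count floor. The counts of LEFTY1 in the libraries numbered 3 (2 to 4) overlapped those in the others, and LEFTY2 was at 0 in 2 of the 3 libraries numbered 3. The 2 genes are close copies: 14.8% of the 100-base windows of LEFTY1 occur in LEFTY2, so single reads could belong to either.

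FOXH1 (ENSG00000160973, chr8:144473412-144476335), the nuclear partner of SMAD2 and SMAD3, had 43.8, 38.9 and 51.0 CPM in flat libraries 1, 2 and 3. It had 40.3, 28.1 and 59.1 CPM in the concave libraries and 28.7, 28.8 and 41.4 CPM in the convex ones. Within each shape the library numbered 3 was the highest, 1.23-fold above the mean of the other 2 on flat, 1.73-fold on concave and 1.44-fold on convex plates. Across shapes the groups overlapped, because convex 3 was below flat 1. The mean was 50.5 ± 8.85 CPM (n = 3) against 34.8 ± 7.01 CPM (n = 6). FOXH1 shares 791 exon bases with KIFC2 on the opposite strand, which ran from 20.8 to 27.8 CPM and averaged 24.3 ± 0.294 CPM in the libraries numbered 3 against 24.6 ± 3.02 CPM in the others.

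**Figure D2:**
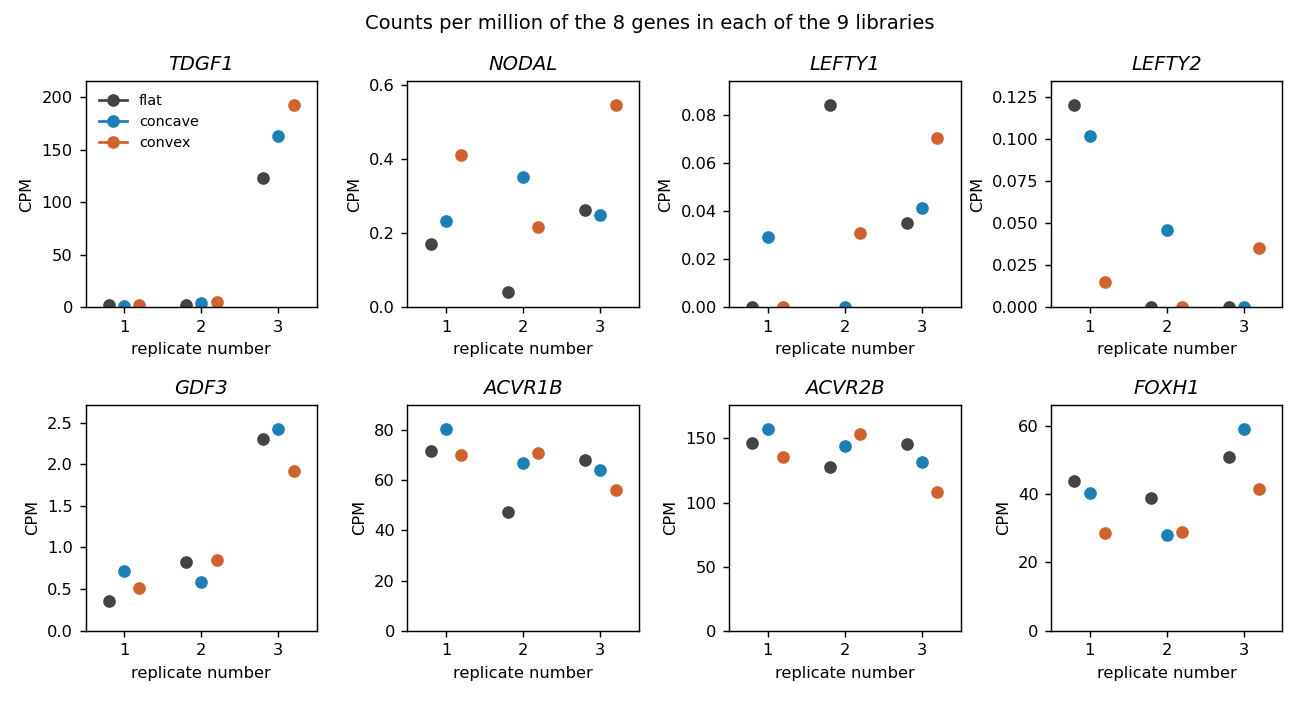
CPM of each of the 8 genes (vertical axes, each from 0 with its own scale) in every library, by replicate number (horizontal axis) and plate shape (colour). TDGF1 and GDF3 are higher in all 3 libraries numbered 3 than in the other 6, and the other 6 genes overlap.

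Of the 6 tested members, 2 (TDGF1 and GDF3) had all libraries numbered 3 above all others, where 11.7% of all tested genes did, and 0 of 6 had them all below, where 12.5% did. Since the members were picked with these values in view, nothing is read from these counts. Without flat 1 or without convex 3, FOXH1 joined the first count, which then was 3. The count was 2 under the other scalings as well: the log2 ratio of TDGF1 was 5.88 with TMM, 5.89 with DESeq2 size factors and 5.78 with library size only, a scaling that moved the median of all tested genes by -0.10.

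Bending the plate was the comparison the study was designed for, and none of the members passed its test. No member and no other gene was called (0%, 0 of 23075) when the 3 shapes were compared in pairs or by an F test, by edgeR's quasi-likelihood test with Benjamini-Hochberg adjustment. Of the 23075 genes, 1047 had an unadjusted p under 0.05 for concave against flat and 2135 for convex against flat. There were 65 for concave against convex and 897 by the F test, and 0 of the 6 tested members were in any of these. With no effect of shape a share of 0.05 of all tested genes is expected to pass, so these are not counts of responding genes. These counts moved with single libraries: the first ran from 205 without concave 2 to 4096 without flat 3, the second from 815 without flat 2 to 5831 without flat 3, the third from 54 without convex 3 to 148 without concave 2, and that of the F test from 266 without flat 2 to 3627 without flat 3. With the replicate number as a block they were 2046, 4222, 147 and 2035. DESeq2 called 1 gene, not a member, for convex against flat and 0 elsewhere, and limma voom called 0 in each. Comparisons with flat share its libraries. The smallest adjusted p of a member was 0.844 on concave and 0.513 on convex plates against flat ones, 1.00 between concave and convex plates and 0.971 by the F test (edgeR).

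For TDGF1 the spread within a shape was so wide that the test could see only very large effects. Its means were 42.2 ± 69.9 CPM on flat, 56.1 ± 92.5 on concave and 66.5 ± 109 CPM on convex plates (n = 3 each). The log2 fold change was 0.65 for convex against flat (SE 2.04, 95% interval -3.87 to 5.18), 0.41 for concave against flat (SE 2.03) and -0.25 for concave against convex (SE 2.03). Leaving out a library numbered 3 moved these by more than their size: convex against flat was -3.57 without convex 3 and 5.11 without flat 3, concave against flat was -3.97 without concave 3 and concave against convex was 3.98 without convex 3. Compared at the same number, convex exceeded flat in log2 CPM by 0.23, 1.45 and 0.65 at numbers 1, 2 and 3. With the replicate number as a block, the log2 fold change of convex against flat was 0.72 with an SE of 0.31 (adjusted p = 0.268, edgeR). The block narrowed the SE and left the call unchanged.

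NODAL had the largest estimate among the tested members. Its means were 0.159 ± 0.110 CPM on flat, 0.278 ± 0.0649 on concave and 0.392 ± 0.165 CPM on convex plates. The log2 fold change was 1.27 for convex against flat (SE 0.61, 95% interval -0.10 to 2.63, adjusted p = 0.513, edgeR), and it was 1.30 with the replicate number as a block (adjusted p = 0.273). For concave against flat it was 0.78 (SE 0.62, adjusted p = 0.844). The convex and flat libraries overlapped, since convex 2 lay below flat 3. Without flat 2, which had 2 counts, the convex estimate was 0.83.

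GDF3, ACVR1B and ACVR2B differed little by shape. GDF3 averaged 1.16 ± 1.02, 1.24 ± 1.03 and 1.10 ± 0.732 CPM on flat, concave and convex plates, and its log2 fold change was -0.09 for convex against flat (SE 0.76, 95% interval -1.78 to 1.60). ACVR1B averaged 62.3 ± 13.1, 70.4 ± 8.72 and 65.6 ± 8.34 CPM, with a log2 fold change of 0.08 (SE 0.19, interval -0.35 to 0.50). ACVR2B averaged 140 ± 10.4, 144 ± 13.0 and 132 ± 22.8 CPM, with -0.08 (SE 0.16, interval -0.44 to 0.28). The 2 receptors had the narrowest intervals of the tested members, which leave no room for a 2-fold change in either direction at this confidence.

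FOXH1 was lower on convex plates at each number, though not by the test. Its means were 44.5 ± 6.07 CPM on flat, 42.5 ± 15.6 on concave and 33.0 ± 7.29 CPM on convex plates. The log2 difference of convex from flat was -0.61, -0.43 and -0.30 at numbers 1, 2 and 3. The fitted log2 fold change was -0.44 (SE 0.27, 95% interval -1.03 to 0.15, adjusted p = 0.545, edgeR) and -0.45 with the replicate number as a block (SE 0.16, adjusted p = 0.264). Convex lay above flat at all 3 numbers for 2 of the 6 tested members (TDGF1 and NODAL) and for 24.3% of all tested genes, and below it for 1 of 6 (FOXH1) and for 25.3%. These shares of members are near those of all genes.

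**Figure D3:**
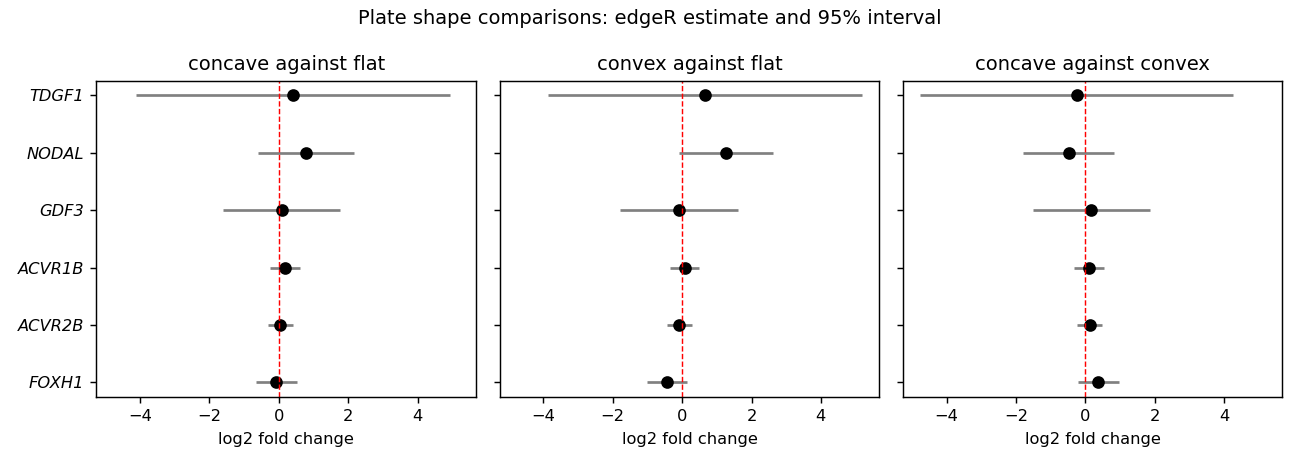
edgeR log2 fold change (horizontal axis) of the 6 tested members in the 3 comparisons of plate shape, with points for estimates and bars for 95% intervals. Every bar crosses 0, and those of TDGF1 are the widest, from -3.87 to 5.18 for convex against flat.

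The other genes of the pathway were counted by role in lists of 49 genes, 39 of them tested, none of which was called for plate shape. The libraries numbered 3 lay above all others for 12 of the 39 and below all others for 5, against 11.7% and 12.5% of all tested genes. The median log2 ratio of the 39 was 0.06 and that of all tested genes -0.02. DRAP1, which binds and inhibits FOXH1, had the smallest p for plate shape among the listed pathway genes, with a log2 fold change of -0.62 for convex against flat (SE 0.23, adjusted p = 0.513, edgeR). It had 132, 181 and 89.3 CPM in the flat libraries and 81.4 to 108 CPM in the other 6, so flat 3 overlapped them.

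Other ligands of the TGF-beta family were listed, not all of which bind ACVR1B and ACVR2B. Of 6 tested, 3 were higher in all libraries numbered 3 and 2 were lower. This was so for 11.7% and 12.5% of all tested genes, and 6 genes are too few to set against these shares. TGFB2, a TGF-beta ligand, was at 7.39 ± 3.13 CPM in the libraries numbered 3 and 34.8 ± 11.8 CPM in the other 6, a 4.70-fold lower mean. GDF11, a ligand related to myostatin, was at 68.6 ± 2.81 against 85.0 ± 6.66 CPM. TGFB1 overlapped, at 10.6 ± 2.20 against 11.7 ± 1.68 CPM. INHBA and INHBB, which encode activin subunits, and TGFB3 were the 3 that were higher; all averaged under 5 CPM and are named after their values were seen. INHBA, the subunit of activin A, had 1.38, 2.13 and 4.03 CPM in flat 3, concave 3 and convex 3 and at most 0.713 CPM elsewhere.

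Of 6 other tested receptors, 1 was higher and 0 were lower in all libraries numbered 3, a number too small to set against the 11.7% and 12.5% of all tested genes. The gene that was higher, CFC1, encodes Cryptic, the second EGF-CFC coreceptor, and it had only 77 counts over all libraries: 0.247 ± 0.0469 CPM against 0.100 ± 0.0151 CPM, a value named after it was seen. TGFBR1 was at 95.7 ± 9.02 against 115 ± 9.88 CPM, ACVR2A at 42.3 ± 5.74 against 53.3 ± 5.12 CPM, TGFBR2 at 13.9 ± 1.19 against 10.6 ± 2.75 CPM and TGFBR3 at 19.0 ± 1.66 against 18.3 ± 3.66 CPM. The convertases that cleave the NODAL precursor, FURIN (54.2 ± 4.65 against 57.9 ± 6.77 CPM) and PCSK6 (7.74 ± 0.821 against 6.72 ± 1.31 CPM), overlapped as well. Among these receptors and convertases of at least 5 CPM, the largest ratio between the libraries numbered 3 and the others was 1.31, for TGFBR2, where that of TDGF1 was 59.0.

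Of 8 SMADs and nuclear partners, 3 were higher in all libraries numbered 3 (SMAD4, SKI and TGIF1) and 2 were lower (SMAD2 and TGIF2), with small differences. Of all tested genes, 11.7% were higher and 12.5% lower in this way, and 8 genes are too few to set against these shares. SMAD2, which the type I receptor phosphorylates, was at 37.3 ± 0.815 against 41.2 ± 1.27 CPM, and SMAD4, the common partner, at 55.4 ± 0.424 against 45.1 ± 3.01 CPM. SMAD3 overlapped at 58.6 ± 2.38 against 55.3 ± 6.76 CPM. The corepressors SKI (125 ± 11.7 against 93.9 ± 22.3 CPM) and TGIF1 (92.9 ± 3.91 against 78.0 ± 7.97 CPM) were higher, and TGIF2 was lower at 72.6 ± 8.51 against 99.9 ± 13.7 CPM. Among 7 tested inhibitors, SMURF2, a ubiquitin ligase, was higher (34.4 ± 1.67 against 27.9 ± 4.13 CPM) and FST, which encodes the activin-binding follistatin, was lower (20.8 ± 0.412 against 38.4 ± 13.5 CPM). The other 5 overlapped, and the shares of all tested genes were again 11.7% higher and 12.5% lower.

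Of 5 feedback and response genes known to follow SMAD2 and SMAD3 activity, 1 was higher and 0 were lower in all libraries numbered 3, against 11.7% and 12.5% of all tested genes. Their summed level was 21.9 to 24.8 CPM in those libraries and 17.5 to 19.9 CPM in the others, without overlap, but this gap rests on 1 gene. The gene that was higher was PMEPA1, which encodes a SMAD-binding membrane protein, at 6.33 ± 0.393 against 1.30 ± 0.303 CPM. Its range was 5.88 to 6.61 CPM in the libraries numbered 3 and 1.03 to 1.84 CPM in the others. The other 4 overlapped. SKIL was at 9.43 ± 1.25 against 10.4 ± 1.30 CPM and SMAD7, the inhibitory SMAD, at 1.05 ± 0.161 against 1.24 ± 0.285 CPM. JUNB was at 3.06 ± 0.139 against 3.56 ± 0.878 CPM and LTBP2 at 3.20 ± 0.504 against 2.48 ± 0.459 CPM. PMEPA1, SMAD7, JUNB and LTBP2 averaged under 5 CPM and are named after their values were seen.

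Of 11 mesendoderm targets of NODAL, 5 had enough counts to be tested, and 3 of these were higher in all libraries numbered 3. This was so for 11.7% of all tested genes, and 5 genes are too few to set against that share. FOXA2, a factor of endoderm and floor plate, had 5.13, 5.90 and 10.5 CPM in flat 3, concave 3 and convex 3 and 0.0589 to 0.659 CPM in the other 6. TBXT (Brachyury) was at 1.45 ± 0.248 against 0.737 ± 0.196 CPM and LHX1 at 0.506 ± 0.221 against 0.180 ± 0.0694 CPM. SOX17, a defining endoderm factor, was at 0 in 8 of the 9 libraries and had 2 counts in all, and EOMES had 41 counts over all libraries. The other 2 tested targets overlapped and had lower means in the libraries numbered 3. MIXL1 was at 0.218 ± 0.100 against 0.228 ± 0.0376 CPM and MESP1 at 0.180 ± 0.0348 against 0.314 ± 0.148 CPM. These genes were all under 5 CPM on average and are named after their values were seen. The list as a whole summed to 7.89 to 13.2 CPM in the libraries numbered 3, most of it FOXA2, and to 1.47 to 2.26 CPM in the others.

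**Figure D4:**
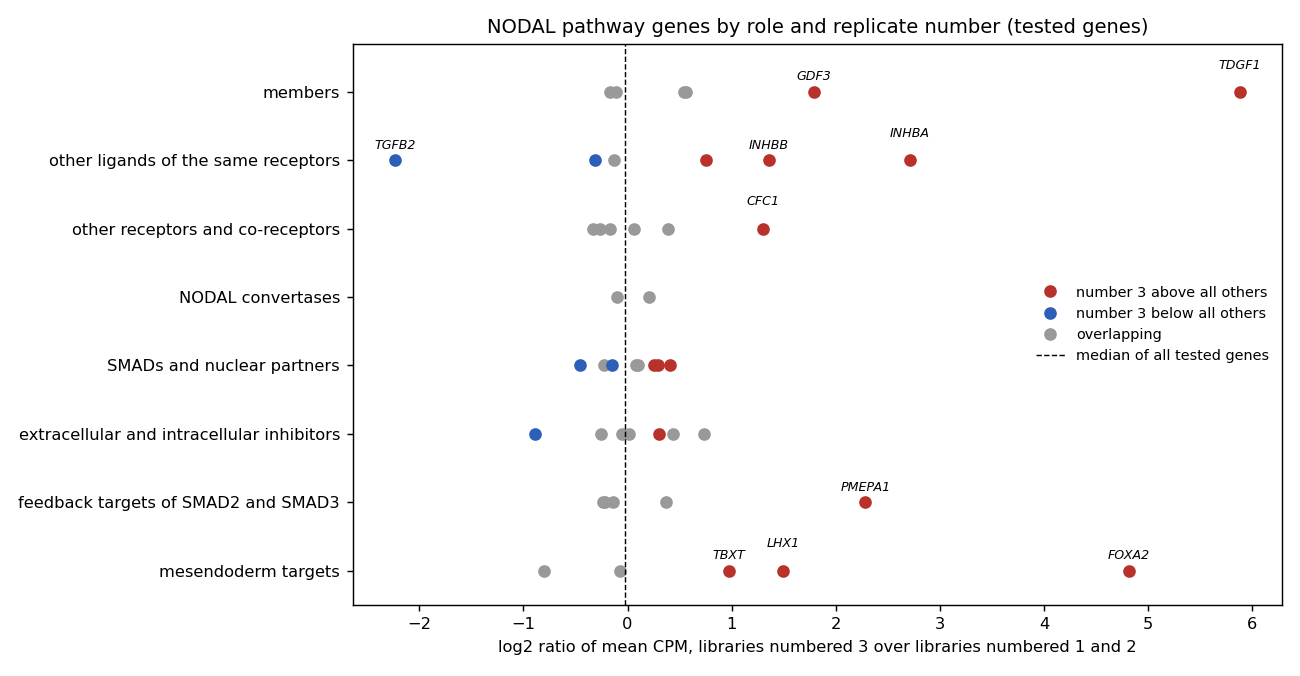
Log2 ratio of mean CPM, libraries numbered 3 over those numbered 1 and 2 (horizontal axis), for the tested members and the tested genes of 7 other role lists (rows), coloured by whether the groups overlap. TDGF1 lies farthest to the right at 5.88, most receptors, convertases and SMADs lie near the median of all tested genes at -0.02, and TGFB2 lies farthest to the left.

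Markers of cell states moved with the same libraries. Of all tested genes, 11.7% were higher and 12.5% lower in all libraries numbered 3. The lists with 4 or 5 tested markers are too short to set against these shares. Of 10 pluripotency markers, 7 were higher in all libraries numbered 3 and 1, SOX2, was lower; their summed level was 5352 to 5513 CPM there and 3946 to 4404 CPM in the others. POU5F1 was at 496 ± 15.5 against 269 ± 62.5 CPM and L1TD1 at 526 ± 54.8 against 180 ± 43.3 CPM. Of 9 tested markers of early neuroectoderm, 0 were higher and 5 lower, with sums of 350 to 430 against 497 to 665 CPM, and PAX6 was at 1.17 ± 0.121 against 4.31 ± 2.12 CPM. Of 5 tested markers of non-neural ectoderm and amnion, 3 were higher (KRT7, KRT18 and VTCN1) and the other 2 overlapped. The sums of that list were 171 to 216 against 83.4 to 156 CPM, most of it KRT18 (131 to 172 against 59.5 to 128 CPM). TFAP2A reached at most 0.0920 CPM, and CDX2 was at 0 in 7 libraries. Of 4 tested markers of fibroblasts, endothelium and blood, 1 was higher (KDR) and 3 lower (PDGFRB, PECAM1 and CDH5). The sums of that list, 87.0 to 107 against 46.0 to 83.8 CPM, rose through KDR alone, at 80.5 ± 11.1 against 32.7 ± 7.73 CPM. PDGFRB was at 15.4 ± 1.77 against 36.0 ± 6.21 CPM, and COL3A1 and DCN reached at most 0.139 and 0.108 CPM. Apart from POU5F1, SOX2, L1TD1 and PAX6, the markers named here were picked after their values were seen, as was SIX3 in the plot against TDGF1. The part of these differences in the levels of TDGF1 and GDF3 was not tested. All 3 libraries numbered 3 had TMM factors under 1 (0.931 to 0.970), as did flat 2 (0.962), and their depth, 51916974 to 59511953 counts, lay within the range of the others.

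The genes whose pattern was most like that of TDGF1 were ranked by Pearson r of log2(CPM + 0.5) over the 9 libraries, among 11950 tested genes of at least 5 CPM on average. The libraries form 2 clusters for TDGF1, so a high r mostly records the step between the libraries numbered 3 and the rest, and r over the 6 others alone is given beside it. The ranking used those 6 libraries too, so r over the 6 can be raised by the selection and is no separate check. Highest were CXCL5 (r = 0.996, and 0.904 over the 6), SEPHS1 (0.992 and 0.811), RCHY1 (0.990 and 0.840), SFXN5 (0.989 and 0.809) and ENSG00000288749 (0.988 and 0.723). Lowest were MKNK1 (-0.996 and -0.929), CACNB3 (-0.990 and -0.803), CXXC4 (-0.989 and -0.961), OPRK1 (-0.988 and -0.950) and YPEL1 (-0.988 and -0.918). CXCL5, a chemokine gene, was at 30.3 ± 3.94 CPM in the libraries numbered 3 and 8.20 ± 1.32 CPM in the others, and MKNK1, a kinase gene, at 5.73 ± 0.479 against 11.9 ± 0.737 CPM. None of the 10 belongs to the pathway lists. Members were left out of this ranking, and only 23 of the 49 listed genes averaged at least 5 CPM. The absence therefore says little about how far the pathway genes followed TDGF1. The points share their libraries and scaling, so these values describe likeness in this set of 9 only.

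**Figure D5:**
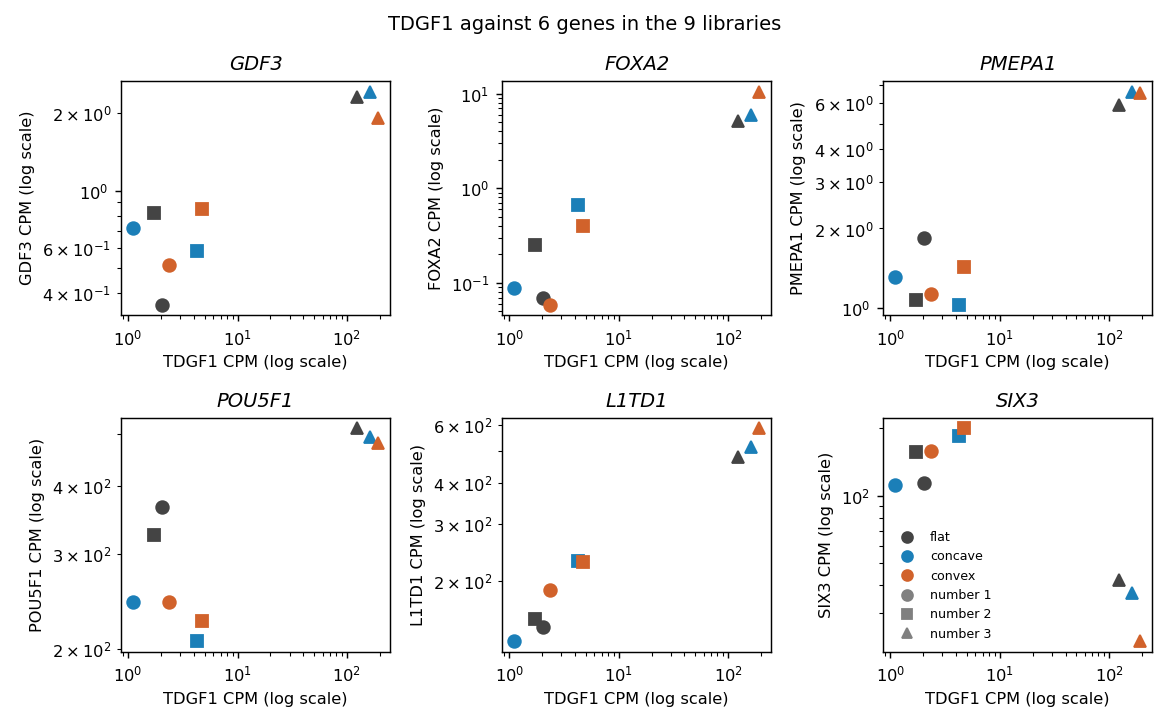
CPM of GDF3, FOXA2, PMEPA1, POU5F1, L1TD1 and SIX3 (vertical axes, logarithmic) against CPM of TDGF1 (horizontal axes, logarithmic) in the 9 libraries, with colour for plate shape and marker for replicate number. The libraries numbered 3 form a cluster at 123 to 193 CPM of TDGF1, with more of the first 5 genes and less of SIX3, a forebrain and eye field factor, than the other 6.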

How the data were processed

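Poly(A) RNA of 9 libraries was measured on strand-specific Illumina libraries, per the labels' protocols. The authors deposited raw counts per gene in 1 table of the series; the submitters' processing notes name HISAT2, featureCounts and GRCh38. Their versions, the annotation release, the strand setting and the rule for reads that match several genes were not given in the sources used here. Columns were matched to libraries by shape and replicate number. Of 62710 genes, 62639 had a symbol and 58274 were in GENCODE v29, which gave positions and transcript lengths (median over principal transcripts).

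The test was that of edgeR 4.0.16 in R 4.3.3 (filterByExpr, TMM, robust quasi-likelihood fit of plate shape to all 9 libraries, tested on simulated data), with two-sided tests, Benjamini-Hochberg adjustment over the 23075 genes tested and a call at an adjusted p under 0.05. DESeq2 1.42.0, limma 3.58.1 (voom), DESeq2 size factors, no low-count filter, a replicate block, libraries numbered 1 and 2 only, and each library left out in turn were alternatives.

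The members and lists were chosen with earlier results of these data known. A gene taken out of the lists is not reported here. Named are all members, listed pathway genes of at least 5 CPM on average, the 5 genes most and least like TDGF1, and POU5F1, SOX2, OTX2, PAX6, NANOG and L1TD1; not every gene the rule selects is printed, and others are said to be named after their values were seen.

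Replicate numbers come from the labels. Across genes, deviations from group means correlated as follows at numbers 1, 2 and 3. Flat with concave gave r = 0.493, 0.0339 and 0.397. Flat with convex gave 0.509, 0.493 and 0.701, and concave with convex 0.709, 0.414 and 0.710. The rule set for pairing was that every number exceed 0.1, which only flat with concave at number 2 did not. Deviations sum to 0 within a shape, so a step shared by the libraries numbered 3 can raise r at every number. These values therefore cannot decide whether libraries of the same number were matched.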

Additional observations from a re-analysis of the deposited data

How the results depend on the processing

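Under the 270 alternatives tried for the fold changes of the members by plate shape, 0 passed an adjusted p of 0.05 and the lowest adjusted p was 0.160. Not all of the 270 had a p-value: DESeq2 gave an estimate but no p-value for TDGF1, concave against flat. The replicate block called 0 genes in each comparison, as did the fit without it; it changed no call, although TDGF1, NODAL and FOXH1 then had an unadjusted p under 0.05 for convex against flat. DESeq2 called 1 gene for convex against flat, the non-member ENSG00000270871 (log2 fold change 1.95, adjusted p = 0.0379). Of the 270 values, 28 changed sign, all from estimates smaller than their SE. GDF3, convex against flat, was 0.069 with limma voom, 0.055 with the replicate block and 0.21 with libraries numbered 1 and 2 only. With those libraries only, ACVR2B, convex against flat, was 0.066 and GDF3, concave against convex, was -0.070. Leaving out 1 library at a time gave log2 fold changes for concave against flat from -3.97 to 4.88 for TDGF1, -0.84 to 1.05 for GDF3, -0.031 to 0.10 for ACVR2B and -0.38 to 0.16 for FOXH1. For convex against flat they ran from -3.57 to 5.11 for TDGF1, -0.77 to 0.86 for GDF3, -0.094 to 0.19 for ACVR1B and -0.22 to 0.047 for ACVR2B. For concave against convex they ran from -4.60 to 3.98 for TDGF1, -0.73 to 0.85 for GDF3, -0.0012 to 0.18 for ACVR1B and -0.0023 to 0.26 for ACVR2B. Fewer samples enter these fits; the cause of the other changes was not tested. Where a shape keeps 2 libraries, or where only numbers 1 and 2 are used, the spread is shared across shapes. NODAL rests on 2 to 31 counts a library, and LEFTY1 and LEFTY2 had too few counts to be tested.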
